A study of Mus musculus with 6 samples.

Results

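Cortical capillary endothelial cells were examined in droplet libraries of dissociated mouse kidney, in which 1154 of 24212 kept cells met a rule on endothelial and capillary transcripts. The rule required at least 3 unique molecular identifiers (UMIs, the counted mRNA molecules) of Pecam1, Cdh5 and Emcn together, no UMI of the leukocyte gene Ptprc, at most 2 UMIs of the macrophage genes C1qa, C1qb and C1qc, and at least 2 UMIs of Esm1, Gpihbp1, Kdr and Npr3 together. The sum of these last genes also had to be at least 2 times that of Igf1, Gpr182, Plvap and Bgn (the opposing sum). The cells were thus chosen by the measured levels of these 15 genes, whose values are given as a description. Kept cells held 200 to 3000 genes and at most 50% mitochondrial UMIs, and came from 34034 deposited cells.

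The kidney tissue came from male C57BL/6 mice, an inbred strain, at 12 weeks of age, for which the labels name no transgene or drug. It was minced and digested with type I collagenase in every group. In the 60 min control, the tissue was digested for 60 min by the standard method and broken up by pipetting and vortexing. In the platform groups it was digested in a microfluidic device and passed once through a dissociation and filter device, with cells collected at a 15 min and then at a 60 min interval. All suspensions then went through DNase, red cell lysis and a sort for SytoxBlue-negative live cells, and each condition gave 1 library. The conditions were prepared from tissue of the same source mouse, as far as the study's methods say. No test between conditions was therefore possible, and the intervals given are 95% intervals that cover counting error only, since droplet, cell and animal variation were not replicated. The tumor libraries set beside the kidney values at the end came from female MMTV-PyMT transgenic mice at 10 weeks of age.

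Renal cortical capillaries comprise the peritubular capillaries, which take up the fluid and solutes reabsorbed by the tubules, and the glomerular tuft, which filters plasma. Their endothelium is fenestrated and depends on vascular endothelial growth factor A made by neighbouring epithelium and sensed through the receptor Kdr. Endothelial cells also respond quickly to handling, heat and inflammatory signals by transcribing immediate early genes, chaperones and adhesion molecules, and warm enzymatic dissociation is known to set off such programmes in many tissues.

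The control, 15 min and 60 min libraries contributed 198, 170 and 786 cortical capillary cells, with median depths of 4248, 3709.5 and 3877 UMIs, median gene numbers of 1837, 1773 and 1747, and median mitochondrial shares of 3.74, 3.07 and 4.32%. Their UMIs summed to 841251, 652902 and 3257276, and levels below are counts per 1000000 UMIs of these sums (CPM). No barcode was shared between cortical capillary cells of different libraries, although among all deposited cells 53 to 211 barcodes occurred in a given pair of libraries, and 2 control and 2 cells of the 60 min interval carried a barcode also seen elsewhere. Across all kept cells the median mitochondrial share was 7.38% in the control, 20.4% at the 15 min interval and 8.59% at the 60 min interval.

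The label was set beside markers. Of the 4 genes taken as cortical capillary markers, Esm1, Gpihbp1 and Kdr were part of the rule. Only Igfbp5, an insulin-like growth factor binding protein, lay outside it. The markers were set with earlier results of these data known, so the level of Igfbp5 describes the cells and is no separate support. Igfbp5 stood at 6355 CPM in the control, 6670 CPM at the 15 min interval and 6281 CPM at the 60 min interval, and 94.4, 94.7 and 94.1% of the cells held at least 1 UMI. After thinning each cell to 1000 UMIs, which left out 18 cells, Igfbp5 was found in 89.2, 91.6 and 89.4% of the cortical capillary cells and in 0.351, 0.446 and 1.40% of B lymphocytes, a cell type that should lack it. Igfbp5 lies on chromosome 1 (mm10, 72857932 to 72874884, minus strand). Esm1, a secreted proteoglycan of VEGF-stimulated endothelium on chromosome 13 (113209659 to 113218098, plus strand), was the strongest of the genes that chose the cells, at 5203, 6676 and 4792 CPM. A median cell held 19, 23 and 17 Esm1 UMIs, and 47 of the 1154 cells held none. Plvap, a gene of the opposing sum, was not absent. It was found in 97.5, 98.2 and 96.6% of the cells, with a median of 10, 11 and 9 UMIs.

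The rule cut through a continuum. Cells in which the capillary sum was 2 to under 3 times the opposing sum (419 cells) held Igfbp5 at 6656 CPM, and cells just outside, at 1.5 to under 2 times (268 cells), held it at 6319 CPM. Cells with exactly 3 UMIs of Pecam1, Cdh5 and Emcn (13 cells) had Igfbp5 at 3045 CPM and those with 2 (12 cells, outside) at 3822 CPM. Among the 22 cells with a capillary sum of only 2 or 3 UMIs, Igfbp5 was at 376 CPM.

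Lists of other cell types differed in level. The summed level of 4 podocyte genes was 46.4, 27.6 and 29.8 CPM, with Nphs1 and Wt1 at 0. The summed level of 7 lymphocyte genes was 3.57, 1.53 and 15.0 CPM, that of 9 pericyte, mesangial and fibroblast genes 8.32, 1.53 and 24.9 CPM, and that of 4 haemoglobin genes 2.38, 1.53 and 0.921 CPM. The summed level of 6 lymphatic endothelial genes was 179, 156 and 133 CPM, although Lyve1 and Pdpn of that list were at 0 or under 1 CPM in every library. For 7 macrophage genes, of which 3 were in the rule, the sums were 219, 164 and 426 CPM. For 8 distal nephron genes they were 187, 72.0 and 366 CPM. Proximal tubule transcripts were the most abundant of these lists: the summed level of 8 genes was 2489 CPM in the control, 10492 CPM at the 15 min interval and 4595 CPM at the 60 min interval, with none of the 8 at 0. These values are taken up again beside the gene comparisons they touch.

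Cortical capillary cells were most frequent in the 60 min platform library. They made up 3.36% of kept cells in the control (198 of 5886; exact binomial interval 2.92 to 3.86%), 2.03% at the 15 min interval (170 of 8390; 1.74 to 2.35%) and 7.91% at the 60 min interval (786 of 9936; 7.39 to 8.46%). The 60 min interval exceeded the control by 4.55 percentage points (Newcombe interval 3.83 to 5.24) and the 15 min interval lay 1.34 points under it (−1.34, interval −1.90 to −0.798). The order of the 3 libraries was the same under every alternative gate tried, including without cells that held a proximal or distal tubule UMI (2.33, 1.22 and 4.46%).

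Relative to other endothelium the pattern differed. Of the cells that passed only the endothelial and leukocyte conditions (566, 392 and 2433 cells), cortical capillary cells made up 35.0% in the control (31.1 to 39.1%), 43.4% at the 15 min interval (38.4 to 48.4%) and 32.3% at the 60 min interval (30.4 to 34.2%). The 15 min share was 8.39 points above the control (2.11 to 14.6), whereas gating after thinning gave 39.3% in the control (34.8 to 44.0%) and 43.1% at the 15 min interval (37.7 to 48.5%), intervals that overlap. Without the tubule-led clusters described below, these shares were 33.7 and 39.8%. The 60 min share differed from the control by −2.68 points, with an interval from −7.09 to 1.58 that includes 0. For comparison, cells with the opposite balance of the rule genes, called Igf1/Plvap endothelial cells here (the sum of Igf1, Gpr182, Plvap and Bgn at least 2 and at least 2 times the capillary sum), numbered 185, 77 and 827. There were thus 1.07, 2.21 and 0.95 cortical capillary cells for each Igf1/Plvap endothelial cell, with intervals of 0.871 to 1.31, 1.68 to 2.93 and 0.861 to 1.05.

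**Figure D1:**
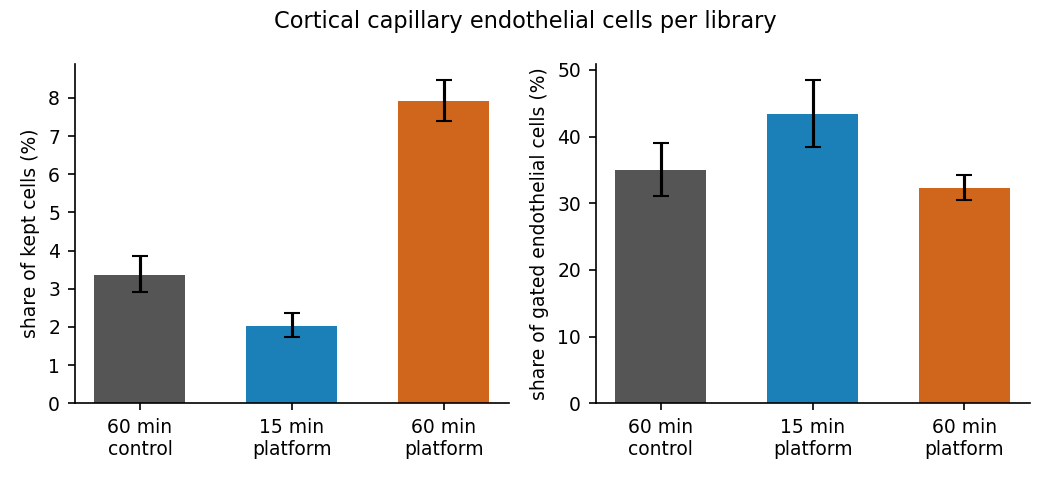
Share of cortical capillary endothelial cells per library, in percent of kept cells (left) and of gated endothelial cells (right); bars are shares and error bars exact 95% binomial intervals for counting error, 1 library per condition. The 60 min interval is highest on the left at 7.91%, and the 15 min interval is highest on the right at 43.4%.

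Genes outside the rule that separated cortical capillary cells from Igf1/Plvap endothelial cells were next described, over 10011 genes with enough counts (at least 20 UMIs expected in the smaller sum). Because both groups were cut from the same cells by correlated genes, these differences characterise the chosen cells and are no test. At least 2-fold higher levels in all 3 libraries were found for 65 genes, or 0.649% of those compared, and at least 2-fold lower levels for 108, or 1.08%. Without the 15 min library, which held only 77 Igf1/Plvap endothelial cells, the counts were 119 and 221.

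Igfbp5 and Igfbp3, which bind insulin-like growth factors outside the cell, were among the most abundant of the higher genes. Igfbp3 stood at 1681, 1795 and 1543 CPM in cortical capillary cells against 184, 503 and 268 CPM in Igf1/Plvap endothelial cells, a ratio of 9.14, 3.57 and 5.75. For Igfbp5 the ratios were 4.86, 2.41 and 4.16. The receptors Igf1r (47.5, 45.9 and 66.3 CPM) and Igf2r were low in both groups. Of the 10 genes of the insulin-like growth factor list, 6 outside the rule were compared and Igfbp3 and Igfbp5 were the 2 that were at least 2-fold higher.

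Single ligands and transcription factors were also higher, while most genes of their lists stayed within 2-fold: 1 of 10 compared Notch pathway genes and 1 of 8 arterial genes were higher in all 3 libraries. Prdm1, a transcriptional repressor, was at 71.3, 88.8 and 54.6 CPM against 7.61, 9.08 and 5.09 CPM. The Notch ligand Dll4 was at 246, 170 and 171 CPM against 71.0, 36.3 and 48.8 CPM. Efnb2, the ephrin ligand of arterial-side endothelium, was at 235, 233 and 227 CPM against 35.5, 69.6 and 46.4 CPM. Edn1, the precursor of the vasoconstrictor endothelin, was at 54.7, 38.3 and 45.1 CPM against 8.88, 3.03 and 10.5 CPM. The 15 min value of Edn1 in Igf1/Plvap endothelial cells rested on a single UMI. In the endothelial transcription factor list of 16 genes, 15 were compared, Prdm1 and Mecom were at least 2-fold higher in all 3 libraries and Nr2f2 was lower.

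The basement membrane collagen Col15a1 was at 119, 123 and 126 CPM against 22.8, 39.4 and 32.3 CPM, and was the only 1 of the 9 basement membrane genes to differ 2-fold in every library. Fabp4, an intracellular fatty acid carrier, was at 6304, 5747 and 6488 CPM, among the highest levels in these cells, and exceeded the comparison group 1.68-, 2.07- and 1.67-fold. Uchl1, a ubiquitin hydrolase, Btnl9, a butyrophilin-like protein, Rnd3, a small GTPase, and Inhbb, a subunit of activins, followed the same direction, with ratios of at least 2 in each library. Btnl9 stood at 506, 556 and 518 CPM against 50.7, 84.8 and 69.4 CPM.

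Genes lower in cortical capillary cells included the adhesion receptor Vcam1, at 59.4, 26.0 and 30.1 CPM against 596, 233 and 420 CPM. The venous transcription factor Nr2f2 was at 51.1, 49.0 and 50.7 CPM against 287, 279 and 259 CPM. Cavin2, a caveolar coat protein, was at 153, 99.6 and 128 CPM against 619, 515 and 517 CPM, and the tetraspanin Cd9 was at 426, 409 and 434 CPM against 1093, 1123 and 1229 CPM. Wnt2, a secreted Wnt ligand, was at 0, 0 and 0.307 CPM against 43.1, 81.7 and 54.2 CPM. Flrt2, Sema3d, Ntn1 and Eln, which code for guidance cues and for elastin, were low in the same way, with 14.1 CPM or less in every cortical capillary sum.

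General endothelial genes did not separate the groups. Of 11 pan-endothelial genes outside the rule, none differed 2-fold in all 3 libraries. Pecam1, which was in the rule for both groups, was at 757, 819 and 754 CPM against 826, 878 and 907 CPM. Ehd3, a marker of glomerular endothelium, was present at 528, 499 and 408 CPM, 1.87-, 1.79- and 1.30-fold above the comparison group. Of 7 compared genes of the glomerular list, 1 was at least 2-fold higher in all 3 libraries and none was lower, with a median log2 ratio of 0.84.

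**Figure D2:**
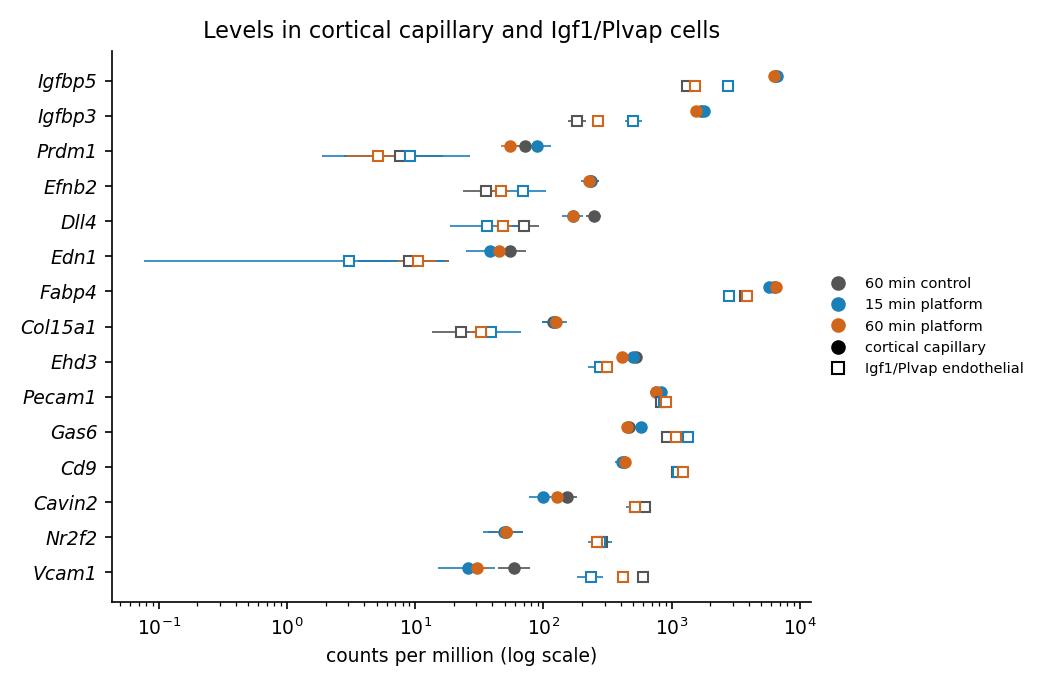
Levels of genes in cortical capillary cells (filled circles) and Igf1/Plvap endothelial cells (open squares), in CPM on a log axis, by library (colours), with exact 95% Poisson intervals for counting error. All genes but Pecam1 lie outside the rule; Igfbp5 to Ehd3 lie to the right for the cortical capillary cells, Gas6 to Vcam1 to the left, and Pecam1 is close in both.

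The cortical capillary sums were next compared between libraries. The 15 min library differed from the control in both digestion time and device. The 60 min interval held cells collected after the 15 min interval. Time, method and order of release can therefore not be told apart. Both platform comparisons share the control, so their values are given side by side. A gene counted as different when its CPM differed at least 2-fold. At the 15 min interval against the control, 105 of 4813 genes were higher (2.18%) and 152 lower (3.16%). At the 60 min interval against the control, 51 of 5436 genes were higher (0.938%) and 33 lower (0.607%). At the 60 min against the 15 min interval, 89 of 4644 genes were higher (1.92%) and 34 lower (0.732%). The median log2 ratio over all genes was 0.06, −0.06 and −0.11 in these comparisons, and centring the 60 min against 15 min ratios on their median gave 20 lower genes.

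Chaperone transcripts stood below the control at the 15 min interval. All 10 heat shock genes were compared, 7 were at least 2-fold lower, none was higher, and the median log2 ratio was −1.85, against 0.06 over all genes. At the 60 min interval none of the 10 differed 2-fold from the control and their median was 0.09. The count of lower genes at 15 min was 7 to 9 of 10 under every alternative run for it.

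Hsph1, a nucleotide exchange factor of the Hsp70 machine, had 207 UMIs in the control, 10 at the 15 min interval and 749 at the 60 min interval, or 246, 15.3 and 230 CPM. The 15 min level was 16.1-fold below the control (log2 −4.01, interval −5.09 to −3.10), and the 60 min level lay within counting error of it (log2 −0.10, −0.32 to 0.13). Hsp90aa1, the inducible cytosolic Hsp90, was at 2496, 337 and 2370 CPM, 7.41-fold lower at 15 min. The constitutive form Hsp90ab1 moved less, from 3064 CPM to 1696 and 3284 CPM.

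Hspa1a and Hspa1b, which code for inducible Hsp70, were at 4338, 904 and 4816 CPM and at 1340, 196 and 1906 CPM. At 15 min the 2 genes were 4.80- and 6.83-fold lower than in the control. They are near-identical copies on chromosome 17, so their separate values are uncertain. How reads that fit both copies were counted was not examined. Their RefSeq promoters (GRCm38.p6, minus strand) are shown as a description of the pair. These bases lie before the start and do not bear on how reads were assigned. The 250 bases before each start, at chr17:34972157-34972406 for Hspa1a and chr17:34959239-34959488 for Hspa1b, differ at 3 positions (98.8% identity), which are in capitals.
Hspa1a: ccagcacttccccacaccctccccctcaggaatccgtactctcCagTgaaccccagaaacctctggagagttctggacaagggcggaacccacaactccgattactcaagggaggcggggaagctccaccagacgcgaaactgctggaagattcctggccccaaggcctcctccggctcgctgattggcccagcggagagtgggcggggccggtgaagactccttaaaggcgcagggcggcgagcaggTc
Hspa1b: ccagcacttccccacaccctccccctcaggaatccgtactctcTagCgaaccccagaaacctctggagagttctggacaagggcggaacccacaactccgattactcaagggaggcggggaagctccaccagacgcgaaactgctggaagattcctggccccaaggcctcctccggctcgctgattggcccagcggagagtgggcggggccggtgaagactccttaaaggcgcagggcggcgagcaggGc

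Other chaperones were lower in the same direction at 15 min. The small heat shock protein Hspb1 was at 3942, 1389 and 5776 CPM, 2.84-fold lower at 15 min and 1.47-fold higher at 60 min than in the control. Dnajb1, an Hsp40 co-chaperone, was at 352, 76.6 and 437 CPM, and the constitutive Hspa8 at 2218, 1002 and 2062 CPM. The mitochondrial chaperonin pair Hspd1 and Hspe1 differed least, at 222, 158 and 234 CPM and at 390, 225 and 342 CPM, neither passing 2-fold.

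Heat shock genes are known to be bound by heat shock factor at repeats of GAA in alternating orientation, and a 3-unit element (the letters GAA, then 2 bases of any kind, TTC, 2 of any kind and GAA, on either strand) was searched for in the RefSeq promoters of 300 bases (250 before to 50 after the start). Overlapping matches were counted as found. The element was present in 198 of 32851 promoters (0.603%). Of the 10 heat shock genes, 7 had a promoter in the table and 3 of these held a match: Hsph1, Hspd1 and Hspe1. Hsp90aa1, Hsp90ab1 and Hspa8 had none in the table. The stretches below carry the matches in capitals, for Hsph1, which differed most at 15 min, and for Hspe1, which did not reach 2-fold. The Hspe1 element lies between the start of Hspe1 and a divergent start of Hspd1. It is the same element that gave the Hspd1 match, so these genes are not separate cases. The window of the other listed Hspd1 start held no match. The Hsph1 stretch is the last 30 bases of its window, at chr5:149636287-149636316 on the minus strand, with the match from 37 to 49 bases after the start, and the Hspe1 stretch is the 250 bases before the start at chr1:55087898-55088147 on the plus strand, with 2 overlapping matches. A match is a description of the letters and was not read as a binding site.
Hsph1: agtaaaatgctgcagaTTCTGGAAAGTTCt
Hspe1: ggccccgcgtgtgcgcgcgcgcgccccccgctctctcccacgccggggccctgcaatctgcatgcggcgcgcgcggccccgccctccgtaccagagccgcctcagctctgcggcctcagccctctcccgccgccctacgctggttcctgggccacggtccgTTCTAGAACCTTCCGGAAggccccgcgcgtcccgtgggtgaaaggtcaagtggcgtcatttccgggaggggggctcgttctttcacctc

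Cell by cell, the heat shock signal was spread widely in both 60 min libraries and narrowly at 15 min. With every cell thinned to 1000 UMIs, the median cell held 11 heat shock UMIs in the control, 5 at the 15 min interval and 14 at the 60 min interval. From the lowest to the highest 10% mark, cells ranged from 2 to 40.6, from 1 to 11.0 and from 3 to 46.0 UMIs, and the highest cell held 87, 22 and 106. Low cells were present in all 3 libraries, whereas no cell of the 15 min interval exceeded 22.

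**Figure D3:**
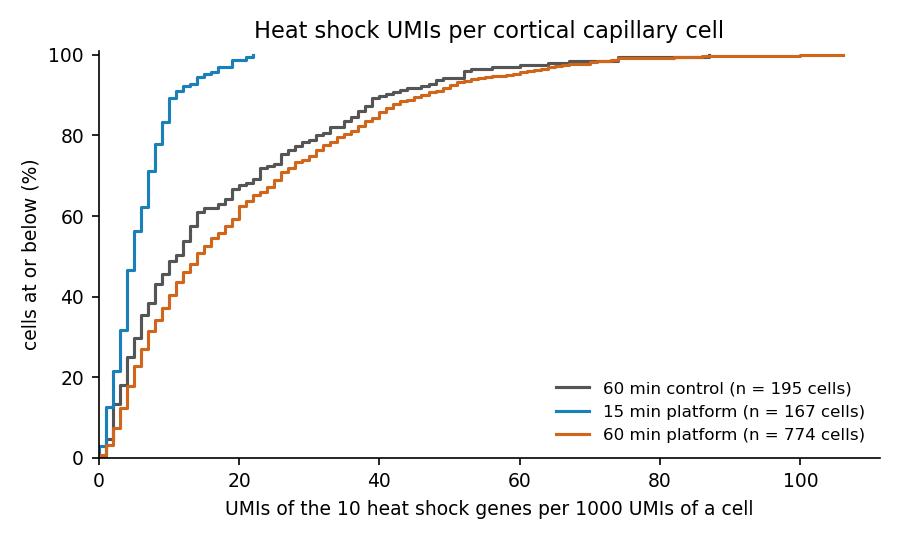
Cumulative share of cortical capillary cells (percent, y axis) against the UMIs of 10 heat shock genes per cell after thinning to 1000 UMIs (x axis), 1 line per library with its number of cells. The 15 min line reaches 100% at 22 UMIs, while the control and 60 min lines extend to 87 and 106 UMIs.

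Other cell types of the same libraries gave the setting. The summed level of the 10 heat shock genes in cortical capillary cells was 18608, 5998 and 21457 CPM, 3.1-fold lower at 15 min than in the control. In Igf1/Plvap endothelial cells the 15 min sum was 3.57-fold lower, in B lymphocytes 2.81-fold, in macrophages 2.48-fold and in proximal tubule cells 1.16-fold. The differences between these ratios were not tested.

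Immediate early genes, which are transcribed within minutes of a stimulus, were also lower at 15 min, but unevenly. Of 15 genes, 14 were compared, 8 were at least 2-fold lower at 15 min than in the control, none was higher, and the median log2 ratio was −1.15. None differed 2-fold between the 60 min interval and the control (median 0.14). Atf3, a stress-induced repressor, was at 944, 84.2 and 772 CPM (794, 55 and 2515 UMIs), 11.2-fold lower at 15 min with a log2 ratio of −3.49 (−3.91 to −3.09). Gadd45b, a growth arrest gene, was at 323, 33.7 and 221 CPM and 9.60-fold lower.

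Ier3, an inhibitor of apoptosis, was at 1303, 156 and 680 CPM, 8.34-fold lower at 15 min, and was also 1.92-fold below the control at 60 min. The zinc finger factor Egr1 was at 1331, 463 and 1742 CPM. Fos, by contrast, was at 2020, 1080 and 2607 CPM, 1.87-fold lower at 15 min, and its partner Jun was at 4219, 3953 and 6749 CPM, 1.07-fold lower at 15 min and 1.60-fold higher at 60 min. Ier2 and Dusp1, at 585, 535 and 835 CPM and at 911, 790 and 1058 CPM, also stayed within 2-fold. In Igf1/Plvap endothelial cells the summed list was 2.91-fold lower at 15 min against 1.69-fold in the cortical capillary cells, and Fos was at 3387, 621 and 3371 CPM there. In proximal tubule cells the summed list was 2.96-fold lower at 15 min than in the control and in B lymphocytes 1.13-fold lower. In macrophages it was 1.24-fold higher. These differences between cell types were not tested.

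Adhesion and inflammatory genes formed another group, in which the 60 min platform library also lay under the control. Of 14 genes, 7 were compared at 15 min and 6 were at least 2-fold lower, with a median log2 ratio of −1.60. At 60 min, 3 of 8 were at least 2-fold lower than in the control and the median was −0.94. Icam1, the leukocyte adhesion receptor, was at 662, 156 and 305 CPM, 4.24-fold lower at 15 min and 2.17-fold lower at 60 min (log2 −1.12, −1.27 to −0.97). Under the stricter gate in which the capillary sum was at least 4 times the opposing sum, no gene of the list was 2-fold lower at 60 min.

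Socs3, a feedback inhibitor of cytokine signalling, was at 471, 99.6 and 202 CPM, 4.73-fold lower at 15 min and 2.33-fold at 60 min. Cebpd, an acute phase transcription factor, was at 403, 133 and 216 CPM. Nfkbia, the inhibitor of NF-kB, was at 1056, 482 and 792 CPM. The chemokine Cxcl10 had 72 control UMIs, none at the 15 min interval and 112 at the 60 min interval, or 85.6, 0 and 34.4 CPM, so that the 15 min level was at least 18.6-fold lower against a floor of 3 counts in that library. Its 60 min ratio changed direction under the stricter gate. The constitutive adhesion molecule Icam2 went the other way at 434, 596 and 448 CPM, within 2-fold throughout.

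**Figure D4:**
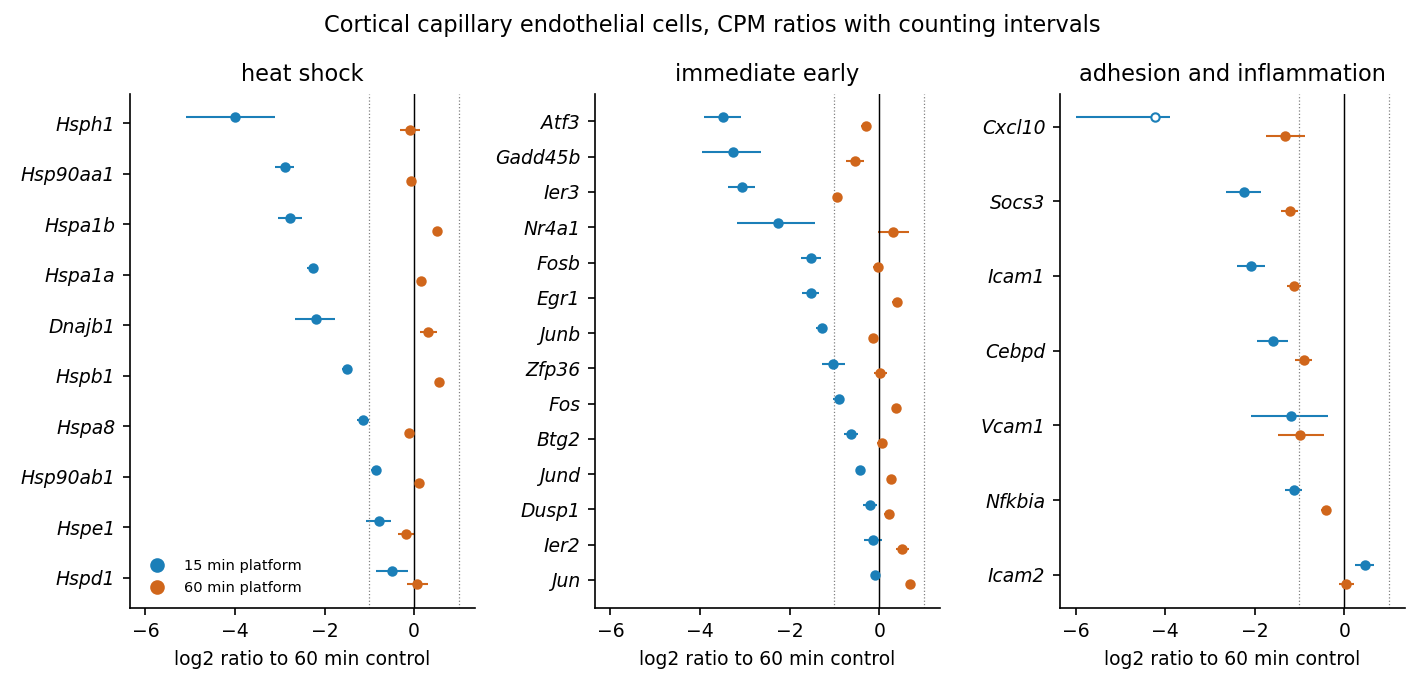
Log2 ratios of CPM to the 60 min control in cortical capillary cells for genes of 3 lists (panels) at the 15 min (blue) and 60 min (orange) platform intervals, with 95% counting intervals; dotted lines mark 2-fold, and the open point of Cxcl10 is a bound whose interval is cut off at the panel edge. Heat shock ratios lie between −4.01 and −0.49 at 15 min and between −0.19 and 0.55 at 60 min.

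The Notch pathway and shear-responsive lists lay below the control, with few genes past 2-fold. The summed level of the 12 Notch pathway genes was 2133, 1127 and 1319 CPM, with a median log2 ratio of −0.41 at 15 min (4 of 6 compared genes below 0, 1 at least 2-fold lower) and −0.33 at 60 min (6 of 7 below 0, 1 at least 2-fold lower). Most of the difference in this sum lay in a single gene, the effector Hes1. Hes1 was at 1343, 427 and 682 CPM, 3.14-fold lower at 15 min and 1.97-fold lower at 60 min. The receptor Notch1 was at 285, 289 and 227 CPM. Nrarp, a Notch feedback inhibitor, was at 68.9, 45.9 and 26.7 CPM and was the only gene of the list to pass 2-fold at 60 min (2.58-fold lower). Of the 8 shear-responsive genes, 7 were compared and 6 lay below 0 at 15 min (median log2 −0.51) and 5 at 60 min (median −0.28). Klf4 was at 851, 352 and 913 CPM and Klf10 at 98.7, 45.9 and 73.1 CPM, both at least 2-fold lower at 15 min, whereas Klf2, the principal flow-induced factor, was at 2234, 1613 and 1795 CPM.

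Among 13 interferon and MHC class I genes, Isg15 (632, 259 and 429 CPM) and Ifit1 (256, 116 and 117 CPM) were at least 2-fold lower at 15 min, and Ifit1 also at 60 min. Abundant members of that list such as H2-D1, Rsad2 and Ifitm3 stayed within 2-fold. Of 13 compared transcription factors, Sox7 alone passed 2-fold at 15 min, at 66.6, 19.9 and 41.1 CPM. Cdkn1a, a cell cycle inhibitor that stress induces, was at 871, 389 and 742 CPM, while the proliferation genes Mki67, Top2a, Ccnb1, Cdk1 and Birc5 were at 8.32 CPM or less in every library.

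Endothelial identity and growth factor genes did not reach 2-fold. None of the 11 pan-endothelial genes and none of the 12 compared genes of vascular growth factor signalling differed 2-fold in any of the 3 comparisons, with medians of 0.20 and 0.02 at 15 min and −0.01 and −0.0038 at 60 min against the control. Flt1, the decoy receptor for vascular endothelial growth factor, was at 2487, 2374 and 2246 CPM, its coreceptor Nrp1 at 1479, 1659 and 1500 CPM, and the angiopoietin receptor Tek at 370, 426 and 382 CPM. Kdr, one of the genes of the rule, was at 2240, 2501 and 2167 CPM. None of the 8 compared basement membrane genes passed 2-fold either, with Sparc at 1286, 1489 and 1543 CPM and Col4a1 at 582, 642 and 666 CPM.

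In lipid handling, Lpl, the lipase that Gpihbp1 anchors to the capillary wall, was at 26.2, 79.6 and 50.7 CPM and passed 2-fold at 15 min. Without the cells of the tubule-led clusters described below, its log2 ratio at 15 min was −0.31. The fatty acid transporter Cd36 was at 121, 159 and 228 CPM, within 2-fold of the control at both intervals.

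The genes furthest above the control at 15 min were largely ones known from the proximal tubule. Dnase1, Nat8, Napsa, Slc22a12, Kap, Mep1a, Ugt2b38, Fut9 and Eci3 were among the first 10, and 7 of 8 proximal tubule genes were at least 2-fold higher, with a median log2 ratio of 1.65. Kap, an androgen-regulated protein of proximal tubule, was at 1267, 7387 and 2660 CPM, 5.83-fold higher at 15 min, and the phosphate transporter Slc34a1 was at 111, 482 and 188 CPM. After thinning, Kap was found in 49.2, 67.7 and 59.2% of cortical capillary cells and in 48.1, 66.1 and 55.4% of B lymphocytes, which should lack it. The Kap shares lay close to those in B lymphocytes and are not read as expression. The source of the Kap UMIs was not tested. Slc34a1 was found in 8.21, 14.4 and 9.17% of cortical capillary cells and in 7.72, 21 and 9.30% of B lymphocytes.

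Without the 64 cells of the tubule-led clusters, Kap had a log2 ratio of 0.50 at 15 min. No proximal tubule gene of the list that still had enough counts to be compared was 2-fold higher. These clusters were chosen because Kap, Slc34a1 or Umod led them. Smaller ratios of tubule genes after their removal thus follow by construction and are no result. The number of higher genes was 42 of 4254 in place of 105 of 4813. The number of lower genes was 126 of 4254 in place of 152 of 4813. The distal tubule gene Umod was at 130, 23.0 and 263 CPM, lowest at 15 min. The 60 min comparison with the control held tubular genes among the higher genes too, with Dnase1, Napsa, Egf, Pth1r and Kl among the first 10.

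The remaining genes that led the 60 min comparison with the control included Bloc1s1 at 11.9, 12.3 and 39.3 CPM and the chemokine Ccl4 at 16, 1 and 227 UMIs (19.0, 1.53 and 69.7 CPM). On the lower side stood the transcription factor Bhlhe40 at 165, 23.0 and 44.8 CPM, the deadenylase-like gene Noct at 54.7, 6.13 and 19.3 CPM, Pde4b, a cyclic AMP phosphodiesterase, at 77.3, 30.6 and 28.6 CPM, and Nop58, a component of the small nucleolar ribonucleoprotein, at 150, 29.1 and 55.6 CPM. Apart from Pde4b, these lower genes were at their minimum in the 15 min library. AY036118, a transcript that shares sequence with ribosomal RNA, was at 1149, 890 and 426 CPM. Cd74, the MHC class II invariant chain, was at 194, 161 and 379 CPM and was found after thinning in 12.3, 9.58 and 24.8% of cortical capillary cells and in 5.28, 3.05 and 9.72% of proximal tubule cells, which should lack it.

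Among themselves the cortical capillary cells fell into 7 clusters when grouped without the genes of the rule and without mitochondrial genes. The clusters are numbered by size and their leading genes define them, so these genes are no result. Clusters 1, 2 and 3 (345, 331 and 305 cells) shared high Igfbp5 (9121, 7119 and 6235 CPM) and were the largest. Cluster 1 was the shallowest, with a median of 2987 UMIs, and cluster 2 was led by the immunoglobulin gene Igkc. Cluster 3 was led by Dnajb1, Nfkbiz, Atf3 and Csrnp1, with Hspa1a at 8147 CPM against 530 CPM in cluster 1. Its cells numbered 78, 2 and 225 in the control, 15 min and 60 min libraries, against 66, 70 and 209 in cluster 1 and 34, 71 and 226 in cluster 2. The clusters that held most cells thus differed between libraries. Since the genes that lead cluster 3 are among those that differed between the libraries, these sizes are given as counts and not as a separate result.

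Cluster 4 (73 cells) was led by Aplnr, the apelin receptor, at 379 CPM and Ccnd1, with the highest Gpihbp1 (2809 CPM) and Fabp4 (10220 CPM) of the 7 and an Igfbp5 level of 2962 CPM. Cluster 6 (36 cells) was led by the water channel Aqp1 (6444 CPM), Igfbp7 (4056 CPM) and Sox17 (920 CPM), and also held the urea transporter Slc14a1 at 1044 CPM, Scin at 635 CPM and the arterial genes Gja4, Fbln5 and Cxcl12 at 344, 350 and 280 CPM. Its Igfbp5 and Ehd3 levels, 301 and 16.1 CPM, and its Esm1 level, 855 CPM, were the lowest of all clusters. These cells met the rule but did not carry the cortical capillary pattern. Aqp1, Slc14a1 and Scin were in the list for descending vasa recta endothelium, and Sox17, Gja4, Fbln5 and Cxcl12 in the arterial list. Since genes of both lists were high, the cells were given no name.

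Clusters 5 and 7 (46 and 18 cells, 64 in all) were led by tubule genes. Cluster 5 held Kap at 32072 CPM and Slc34a1 at 2052 CPM with a median mitochondrial share of 15.1%, and cluster 7 held Umod at 5426 CPM with 27.1%. Their median depths, 6993 and 6933.5 UMIs, were above those of the other clusters, their Cdh5 levels were 270 and 239 CPM, and whether they were droplets of more than 1 cell was not tested. They made up 5 and 2 control cells, 13 and 1 cells of the 15 min interval, and 28 and 15 cells of the 60 min interval.

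**Figure D5:**
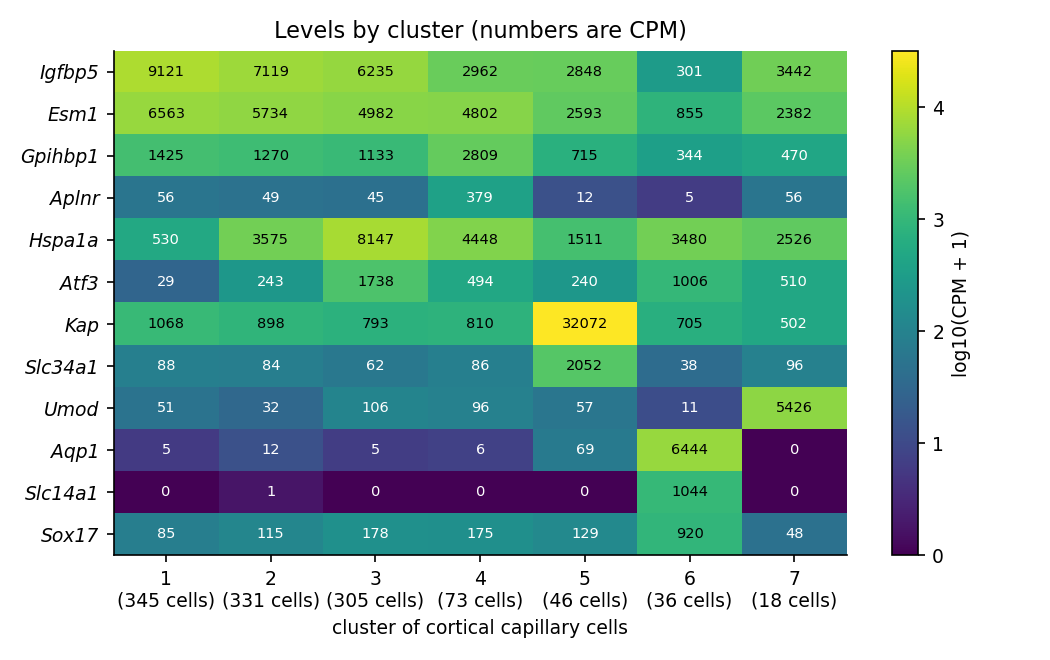
CPM of 12 genes (rows, numbers printed in each cell) in the 7 clusters of cortical capillary cells (columns, with the number of cells), coloured by log10(CPM + 1). Igfbp5 is lowest in cluster 6 (301 CPM), where Aqp1 is at 6444 CPM, and Kap stands at 32072 CPM in cluster 5.

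Endothelial cells of MMTV-PyMT mammary tumors, a transgenic breast tumor model in which a viral oncogene is driven in mammary epithelium, were set beside these values. Levels were not compared, since tissue, mouse genotype, sex and age differed and the counts were aggregated per tissue. The same endothelial and leukocyte conditions gave 300, 253 and 777 tumor cells. Hspa1a was at 500.0, 114 and 1378 CPM in the tumor control, 15 min and 60 min libraries, and Atf3 at 625, 292 and 1243 CPM, with the 15 min library lowest in both. Other genes of the same lists did not follow this order: Jun was at 1982, 2104 and 2722 CPM, Egr1 at 413, 484 and 606 CPM and Hspd1 at 102, 143 and 154 CPM, each higher at 15 min than in the tumor control. Hes1 was at 520, 515 and 627 CPM there, close across libraries, where the cortical capillary cells had 1343, 427 and 682 CPM. Esm1 was at 138, 357 and 185 CPM in the tumor endothelium.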

How the data were processed

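Droplet libraries of 3 kidney conditions, 1 library each, were analysed, and 3 tumor libraries of the same design were used for values set side by side. The deposited counts are whole UMI counts per gene and cell, which the authors made with Cell Ranger 3.1.0 on mm10 and aggregated per tissue with read depth evened between libraries. Library names and barcode suffixes, the other deposited values used, gave each cell its library. UMIs were summed over the chosen cells of a library and scaled to CPM. Intervals were exact Poisson for CPM, exact binomial for shares and for ratios of CPM, and Newcombe for differences of shares, all at 95% and for counting error only. Genes entered a comparison with at least 20 expected UMIs in the smaller sum, and at least 2-fold counted as different. Symbols that occurred more than once (35) were left out. Clusters were Leiden clusters (scanpy 1.11.5, leidenalg 0.10.2) on 2000 variable genes, 15 components, 15 neighbours, resolution 0.5. Intervals used scipy 1.17.1. Ratios, intervals and counts were tested on simulated data. Doublets were not called, and cells with tubule transcripts were instead left out as an alternative. Leaving out the tubule-led clusters was added after seeing the data.

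B lymphocytes held at least 3 UMIs of Cd79a and Cd79b, fewer than 2 of Pecam1, Cdh5 and Emcn, and at most 2 of C1qa, C1qb and C1qc. Macrophages held at least 10 UMIs of C1qa, C1qb and C1qc and none of Cdh5 and Emcn. Proximal tubule cells held at least 5 UMIs of Slc34a1, Slc27a2, Lrp2 and Miox and none of Pecam1, Cdh5, Emcn and Ptprc. The text names genes of the gene lists and the 10 genes with the highest and the 10 with the lowest ratio in each comparison, without rule, mitochondrial, predicted and globin genes. It also names the 10 with the highest CPM and the 10 that lead each cluster. Scin, Fbln5 and other genes of cluster 6 come from the lists. The chosen cells and lists were set with earlier results of these data known. Some genes that met this rule are not reported here. Promoter sequences are those of RefSeq.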

Additional observations from a re-analysis of the deposited data

How the results depend on the processing

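Shares are given in the order control, 15 min and 60 min. Shares of kept cells were 2.87, 1.64 and 6.39% with no upper gene limit and no mitochondrial limit, 5.18, 3.16 and 12.7% with the capillary sum at least equal to the opposing sum, 1.17, 0.834 and 2.96% with it at least 4 times as large, and 2.33, 1.22 and 4.46% without cells holding a tubule UMI. Gating after thinning gave 7.34% at 60 min. Shares of endothelial cells were 53.9, 67.6 and 52.0% with equal sums and 12.2, 17.9 and 12.1% with 4 times, and thinning gave 39.3, 43.1 and 35.4%. The order of libraries was kept in the shares of kept cells under these settings.

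Counts of higher and lower genes moved more. For 15 min against control, 60 min against control and 60 min against 15 min, thinning gave 26 and 55, 14 and 5, and 40 and 4 genes, a minimum of 5 expected UMIs gave 558 and 448, 363 and 157, and 378 and 235, and no minimum gave 971 and 723, 786 and 700, and 735 and 1198. Against Igf1/Plvap endothelial cells, thinning gave 37 and 50, and leaving out 1 library gave 72 to 119 higher and 87 to 221 lower genes. With the sum at least 4 times as large, 46 and 73 genes differed at 15 min, and 13 and 14 were lower at 60 min against the control and 15 min. Without cells holding a tubule UMI, 26 and 93 differed at 15 min, 30 were higher at 60 min against the control and 9 lower against 15 min. Without the tubule-led clusters, 42 were higher at 15 min and 16 lower at 60 against 15 min. Centring gave 20 lower genes at 60 against 15 min, and resolution 1 gave 11 clusters.

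Log2 ratios that changed direction were as follows. Thinning gave Mep1a −0.10 at 15 min and −0.61 at 60 min against the control, and Lrp2 0.16 at 60 against 15 min. With 4 times, Vcam1 was 0.13 at 15 min and Cxcl10 3.03 at 60 min against the control. Without cells holding a tubule UMI, Lpl, Miox and Nat8 were each −0.31, Slc27a2 −0.53 and S100g 0.030 at 15 min, Cxcl10 was 0.47 at 60 min against the control, and Mep1a 0.40, Egf −0.43 and Inmt 0.69 at 60 against 15 min. Without the tubule-led clusters, Lpl was −0.31, Miox −0.025, Slc27a2 −0.79, Mep1a −0.46 and Klk1 0.16 at 15 min, and Mep1a 1.44, Inmt 0.58 and Ggt1 0.10 at 60 against 15 min. The cause was not tested, except that fewer or more cells and genes enter by construction. No paired analysis was possible because each condition had 1 library. With 1 library per condition, differences between conditions and between libraries cannot be told apart.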
